A study of Saccharomyces cerevisiae with 3 samples.

Results

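Intergenic regions that separate 2 genes transcribed away from each other hold both promoters on the same stretch of DNA. Here 1431 such divergent regions of the budding yeast Saccharomyces cerevisiae were examined, out of 5437 intervals of 100 to 2000 bp between neighbouring nuclear protein-coding genes. They were found by sorting the 6002 genes by position and keeping the intervals whose left gene is encoded on the Crick strand (C in the systematic name) and whose right gene is on the Watson strand (W). The data are the peak lists of 2 chromatin immunoprecipitation libraries from strain BY4741, a haploid laboratory strain of mating type a with deletions in HIS3, LEU2, MET17 and URA3, grown in YEPD, a rich glucose medium, to mid-log phase. One library was made with an antibody against histone H3 trimethylated at lysine 4 (H3K4me3) and one with an antibody against the dimethylated form (H3K4me2), each from formaldehyde-fixed nuclei whose chromatin was cut with micrococcal nuclease. A library without antibody (input) has no peak list and was not used here.

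The enzyme complex COMPASS, whose catalytic subunit is Set1, places methyl groups on lysine 4 of histone H3 while RNA polymerase II transcribes. In yeast the trimethylated form is known from the nucleosomes at the beginning of transcribed genes and the dimethylated form from those that follow. Promoters of yeast genes usually hold a stretch with few nucleosomes, and micrococcal nuclease digests such DNA, so a missing mark and missing nucleosomes cannot be told apart in an interval without a peak. A divergent interval has such a gene beginning at either edge, which allows the marking of 1 side to be set against that of the other.

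The 1431 intervals had a median width of 501 bp (quartiles 287.5 and 759 bp, range 106 to 1999 bp). They involved 2862 different genes, because each gene has a single start and faces at most 1 divergent interval. The rule left out 47 divergent neighbours that overlap or lie under 100 bp apart and 70 that lie over 2000 bp apart. The narrowest member was YDR524C-B/API2 (106 bp, no peak), while YBR298C-A/MAL32 lay just outside at 94 bp, also without a peak. The widest member, UBC4/TEC1 (1999 bp), had H3K4me3 at both starts, as had RHO5/RPS3, which lay just outside at 2030 bp. A start was called marked when peaks covered at least 50% of the first 500 bp of the gene from its start codon, or of the whole gene where it was shorter (427 of the 2862 genes). The H3K4me3 list held 3714 peaks, of which 1863 touched a divergent region, and the H3K4me2 list held 2998, of which 1443 did. Peaks held between 128 and 2689 H3K4me3 tags and between 170 and 1776 H3K4me2 tags, and the full depth of the libraries is unknown. With 1 library per mark there is no replicate spread, so no test was run, and intervals given with shares are exact (Clopper-Pearson) 95% intervals that cover counting error only.

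H3K4me3 lay at both starts of a divergent region more often than H3K4me2 did. H3K4me3 marked both starts in 747 of the 1431 regions (52.2%, 49.6 to 54.8), 1 start in 488 (34.1%, 31.6 to 36.6) and no start in 196 (13.7%, 12.0 to 15.6). H3K4me2 marked both starts in 357 regions (24.9%, 22.7 to 27.3), 1 start in 585 (40.9%, 38.3 to 43.5) and no start in 489 (34.2%, 31.7 to 36.7). The first 500 bp leave out H3K4me2 that lies deeper in the gene. With the first 1000 bp, 700 regions had H3K4me3 and 430 had H3K4me2 at both starts. Counted by gene, 1982 of the 2862 divergent starts carried H3K4me3 (69.3%, 67.5 to 70.9), beside 64.6% of all 6002 genes and 60.4% (58.7 to 62.2) of the 3140 genes outside divergent regions. For H3K4me2 the count was 1299 (45.4%, 43.6 to 47.2), beside 43.5% of all genes and 41.8% (40.1 to 43.6) of the genes outside. Short genes were more often without a mark, and in the 1044 regions where both genes reach 500 bp the shares with both starts marked were 60.1% for H3K4me3 and 30.7% for H3K4me2. The order of the classes within a mark depended on the settings. For H3K4me3, when the weaker peaks of each list, those under its median fold, were left out, 298 regions had both starts marked, fewer than had 1. With 500 bp around each summit, 450 regions had both starts marked and 664 had 1. For H3K4me2, regions with no marked start outnumbered those with 1 under 5 of the 8 alternatives. The counts without and with 1 marked start were 673 and 533 with a limit of 75%, 644 and 545 with the first 300 bp, and 655 and 548 with a score of at least 100. They were 833 and 471 with peaks at or above the median fold, and 1013 and 368 with 500 bp around summits.

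Marking of one start went with marking of the other. Where the left start carried H3K4me3, the right start carried it in 747 of 982 regions (76.1%, 73.3 to 78.7), and where the left start did not, in 253 of 449 (56.3%, 51.6 to 61.0). For H3K4me2 the shares were 57.8% of 618 regions (53.8 to 61.7) with a marked left start and 39.9% of 813 (36.5 to 43.3) with an unmarked one. Regions in which a single peak lay over both starts were then left out. In the regions of 500 bp or more whose starts were not under a shared peak, the H3K4me3 shares were 72.6% with a marked left start and 56.4% with an unmarked one, and the H3K4me2 shares were 62.4% and 44.5%. The ratio between both H3K4me3 shares, 1.35 with all peaks, ran between 1.12 and 1.92 under the alternative settings.

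By called peaks, the unmarked start of a one-sided region mostly had no covered base. The peaks at the marked starts had median widths of 934.5 bp for H3K4me3 and 1051 bp for H3K4me2. Peaks wider than the 500 bp window make partial cover uncommon by construction, and enrichment below the caller's limit counts as no base. Of the 488 regions with H3K4me3 at 1 start, 464 (95.1%) had no covered base in the start window of the other gene, and 13 had between 25 and 50% of it covered. Of the 585 with H3K4me2 at 1 start, 508 (86.8%) had no covered base in the other window. The genes at the unmarked side were shorter and more often without a standard gene name. In the 488 one-sided H3K4me3 regions the unmarked gene had a median length of 966 bp and the marked gene 1291.5 bp. Of the unmarked genes 112 (23.0%, 19.3 to 26.9) had a systematic name alone, against 31 of the marked genes (6.35%, 4.36 to 8.90). Genes under 500 bp made up 29.9% of the unmarked and 7.79% of the marked side. Genes of regions with H3K4me3 at neither start were like the unmarked genes of one-sided regions. Their median length was 969.5 bp, 22.4% had a systematic name alone and 29.8% were under 500 bp. Over all divergent starts these values were 1188 bp, 10.6% and 14.9%.

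Width classes are given with their upper limit excluded, except the last. The width of the interval went with the marking differently for the 2 marks. H3K4me3 at both starts was most frequent in intervals of 300 to 500 bp, with 194 of 323 regions (60.1%, 54.5 to 65.4). It was less frequent at 100 to 200 bp (44.6% of 83 regions, 33.7 to 55.9) and at 1000 to 2000 bp (36.2% of 188 regions, 29.3 to 43.5). H3K4me2 at both starts was found in 9.64% of regions at 100 to 200 bp (4.25 to 18.1), 17.2% at 200 to 300 bp, 24.5% at 300 to 500 bp, 32.0% at 500 to 1000 bp (28.1 to 36.2) and 47 of 188 regions at 1000 to 2000 bp. In the narrowest class 19.3% of regions had no H3K4me3 and 54.2% had no H3K4me2 at either start.

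**Figure D1:**
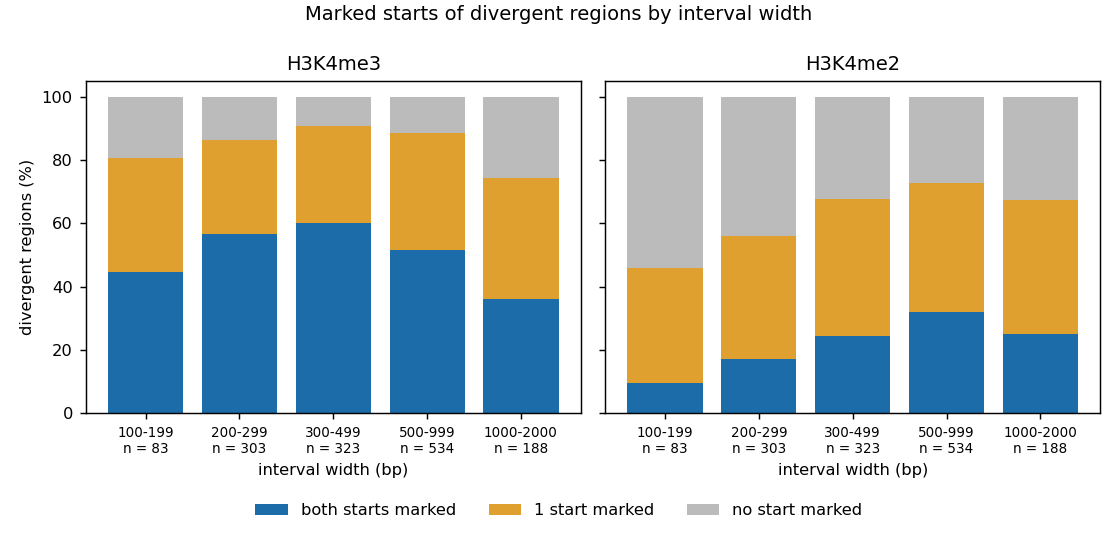
Share of divergent regions (vertical axis, %) with both starts, 1 start or no start marked, by interval width in bp (horizontal axis, with the number of regions), for H3K4me3 (left) and H3K4me2 (right). Both H3K4me3 starts were marked in 60.1% of intervals of 300 to 500 bp, while the H3K4me2 share ran between 9.64% in the narrowest class and 32.0% at 500 to 1000 bp.

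The 2 marks were placed differently around the start codon. The H3K4me3 peak at a marked start usually reached out of the gene into the interval, by a median of 126 bp where separate peaks marked both starts (quartiles 90 and 171 bp) and of 122 bp where only 1 start was marked (quartiles 83 and 167.25 bp). It crossed the start codon at 92.9% and 90.6% of these starts. H3K4me2 peaks crossed it at 48.3% of starts in regions with both starts marked and at 41.2% in regions with 1, with median reaches of -12 and -48 bp, where a negative value means that the peak began inside the gene. Their summits, the points of highest signal, lay deeper in the gene: the median H3K4me3 summit was 302 bp past the start codon and the median H3K4me2 summit 585 bp past it, both where separate peaks marked both starts. Summits inside the interval were rare, in 26 regions (1.82%) for H3K4me3 and 12 (0.839%) for H3K4me2.

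**Figure D2:**
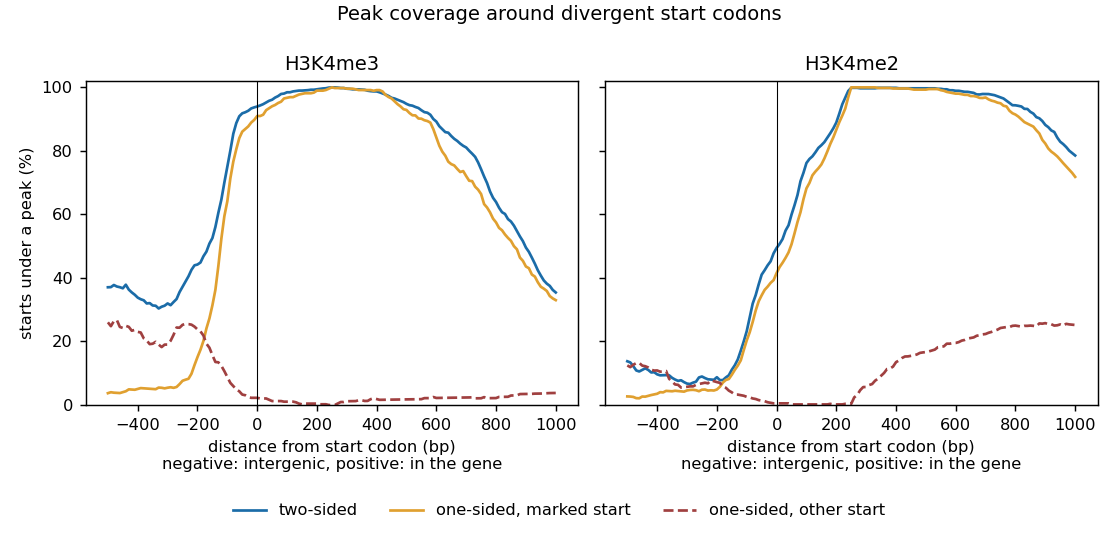
Share of divergent starts under a peak (vertical axis, %) by distance from the start codon in bp (negative towards the intergenic interval, positive into the gene), for regions with both starts marked (two-sided), the marked start of regions with 1 marked start, and the other start of those regions. In one-sided H3K4me3 regions 91.0% of marked and 2.25% of other starts were covered at the start codon, and values near 100% at 250 bp follow from the 50% limit that defines a marked start.

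In the middle of the interval H3K4me3 was scarce unless the interval was narrow. The centre was under an H3K4me3 peak in 50.6% of intervals of 100 to 200 bp, 45.9% at 200 to 300 bp, 23.5% at 300 to 500 bp, 8.61% at 500 to 1000 bp and 5.32% at 1000 to 2000 bp. For H3K4me2 the centre was covered in 13.3% of the narrowest intervals and in 1.55 to 4.26% of the other classes. In 114 of the 747 regions with H3K4me3 at both starts (15.3%, 12.8 to 18.0) the same peak lay over both. This share was 67.6% at 100 to 200 bp, 37.8% at 200 to 300 bp, 10.3% at 300 to 500 bp and 1.45% at 500 to 1000 bp, with no such region among 68 at 1000 bp or more. Where 2 separate H3K4me3 peaks marked the starts, the gap between the edges of these 2 peaks was measured. Its median was 56 bp at 200 to 300 bp, 138 bp at 300 to 500 bp, 383 bp at 500 to 1000 bp and 1021 bp at 1000 to 2000 bp. The gap was thus wider in wider intervals, and further peaks inside it were not looked for. The H3K4me2 gap had a median of 396 bp in intervals of 200 to 300 bp, more than the width of the interval, and 6 regions had a shared H3K4me2 peak.

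The widest intervals lying wholly inside 1 H3K4me3 peak were those of HUA1/YTA7, ASF2/SEC31, IAT4/SPT3, COX20/HEM1 and IOC2/KIN2. At HUA1/YTA7 (chromosome VII, 1026654 to 1027369, 716 bp) the peak had a fold of 4.04 and 966 tags, and H3K4me2 lay at the start of YTA7, a chromatin-associated ATPase gene, alone. At ASF2/SEC31 (chromosome IV, 106495 to 107207) the peak had a fold of 3.46 and 1277 tags, and H3K4me2 lay at both starts with 20.2% of the interval covered. SEC31 encodes a coat protein of vesicles that leave the endoplasmic reticulum. COX20/HEM1 (chromosome IV, 926911 to 927451) had 1 H3K4me3 peak of 3.89-fold with 1248 tags and a separate H3K4me2 peak on each side, 2.63-fold at COX20 and 3.08-fold at HEM1, the gene of the enzyme that starts heme synthesis. IAT4/SPT3 (SPT3 encodes a subunit of the coactivator SAGA) and IOC2/KIN2 (IOC2 encodes a partner of the remodeller Isw1) were covered by H3K4me3 peaks of 3.13-fold and 3.33-fold. The first 4 were the only intervals of 500 to 1000 bp, of 534, that H3K4me3 covered whole.

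Coverage of the interval by H3K4me3 was highest in divergent, lower in tandem and lowest in convergent intervals. Peaks covered at least 50% of the interval for H3K4me3 in 543 of 1431 divergent (37.9%, 35.4 to 40.5), 587 of 2691 tandem (21.8%, 20.3 to 23.4) and 170 of 1315 convergent intervals (12.9%, 11.2 to 14.9), beside 23.9% of all intervals. Tandem intervals lie between genes of the same strand and are faced by 1 start, and convergent intervals lie between 2 gene ends. Intervals without a base of H3K4me3 made up 17.1% of divergent, 34.3% of tandem and 68.4% of convergent intervals, against 38.0% of all. Covered whole were 8.74% of divergent, 3.86% of tandem and 2.89% of convergent intervals, against 4.91% of all. Divergent intervals were also the widest, with a median of 501 bp against 399 bp for tandem and 252 bp for convergent intervals. Within width classes the order was the same for H3K4me3, for example at 300 to 500 bp with 52.9% of divergent (47.3 to 58.5), 21.9% of tandem (19.4 to 24.6) and 9.44% of convergent intervals (6.31 to 13.4).

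For H3K4me2 the order was the reverse over all widths. At least 50% of the interval was covered in 65 divergent (4.54%, 3.52 to 5.75), 155 tandem (5.76%, 4.91 to 6.71) and 150 convergent intervals (11.4%, 9.74 to 13.2), beside 6.81% of all. Convergent intervals are narrower, and the difference varied with width. At 200 to 300 bp the shares were 4.62% for divergent (2.55 to 7.63), 52 of 605 for tandem (6.49 to 11.1%) and 11.6% for convergent intervals (8.49 to 15.4). At 500 to 1000 bp they were 3.37% for divergent, 3.51% for tandem and 2.11% for convergent intervals, with overlapping intervals. No base of H3K4me2 was found in 65.2% of divergent, 60.8% of tandem and 68.4% of convergent intervals, against 63.8% of all, and 0.629%, 0.855% and 4.94% were covered whole, against 1.78% of all. Counted per start that faces an interval of 500 bp or more, H3K4me3 covered the start codon at 61.8% of 1444 divergent starts (59.3 to 64.4) and 53.7% of 922 tandem starts (50.4 to 56.9). At 200 bp before the start codon the shares were 15.4% and 12.7%, with overlapping intervals. For H3K4me2 the start codon was covered at 28.0% of divergent and 27.4% of tandem starts.

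**Figure D3:**
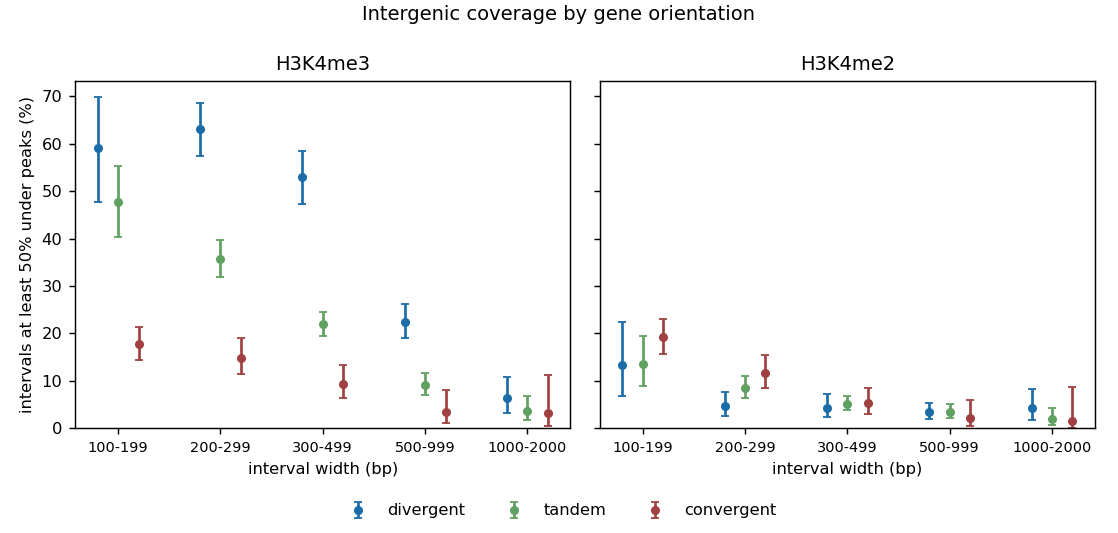
Share of intergenic intervals with at least 50% of their bases under peaks (vertical axis, %) by interval width in bp, for divergent, tandem and convergent intervals, with exact 95% intervals as error bars. For H3K4me3 divergent intervals were highest in each class (52.9% at 300 to 500 bp). Their error bars overlapped those of tandem intervals in the narrowest class and those of both other kinds in the widest. For H3K4me2 only the error bars of divergent and convergent intervals at 200 to 300 bp were apart. All other H3K4me2 error bars within a class overlapped, also in the narrowest class.

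The folds of the 2 peaks at opposite starts were only weakly related. The authors' fold enrichment of the left and the right peak was compared within each list where separate peaks marked both starts. Over 633 regions the H3K4me3 folds had a Pearson r of 0.12 and a Spearman rho of 0.13, and over 351 regions the H3K4me2 folds had 0.11 and 0.11. Both peaks of a region come from 1 library, and no p is given. The larger of the 2 folds exceeded the smaller by a median ratio of 1.13 for H3K4me3 (highest 1.72) and 1.10 for H3K4me2 (highest 1.60). Tags differed more, with the larger tag count exceeding the smaller by over 1.5 times in 43.4% of H3K4me3 and 41.3% of H3K4me2 regions.

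**Figure D4:**
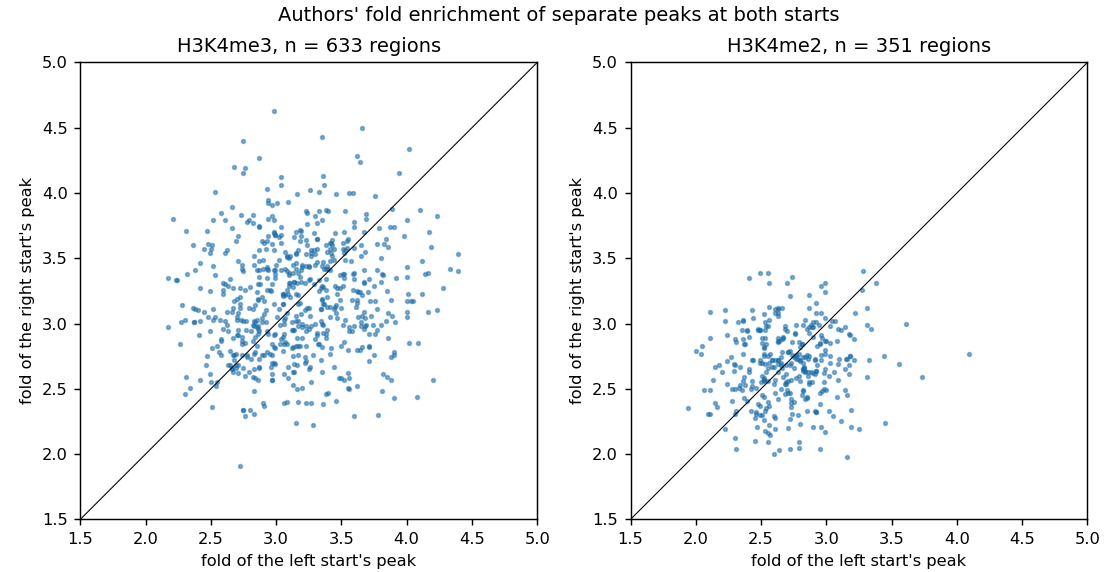
The authors' fold enrichment of the peak at the left start (horizontal axis) and at the right start (vertical axis), 1 point per region with separate peaks at both starts, and the line of equal folds. The points form a round cloud in both panels, with a Pearson r of 0.12 over 633 H3K4me3 regions and 0.11 over 351 H3K4me2 regions.

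Ranked by the lower of their 2 folds, the first 5 regions with separate H3K4me3 peaks at both starts were TAF8/DAT1, TDA3/RPL27A, RPL13B/RPS16A, RAD33/SPT5 and PAC10/YGR079W. At TAF8/DAT1 (chromosome XIII, 43576 to 44044, 469 bp) the folds were 4.02 with 811 tags at TAF8, a subunit gene of the general transcription factor TFIID, and 4.34 with 1033 tags at DAT1, which encodes a protein that binds runs of adenine and thymine. Both starts also carried H3K4me2, and none of the interval was under it, while 60.8% of it was under H3K4me3. At RAD33/SPT5 (chromosome XIII, 247429 to 247676, 248 bp) the folds were 4.1 at the repair gene RAD33 and 3.87 at SPT5, an elongation factor gene. The RAD33 peak held 2689 tags over 5613 bp, the most tags of any H3K4me3 peak, and the SPT5 peak 640 over 1106 bp. Tags are not scaled to peak width, and RAD33 is 534 bp long, so most of its peak lay outside the gene. At TDA3/RPL27A (chromosome VIII, 125681 to 126520, 840 bp) the folds were 3.94 at TDA3 and 4.15 at the ribosomal protein gene RPL27A, with H3K4me2 at TDA3 alone. PAC10, a prefoldin gene, and the uncharacterised gene YGR079W had 4.23-fold and 3.82-fold peaks, with H3K4me2 at YGR079W alone.

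When both marks are read together, H3K4me2 followed H3K4me3 to the same side. Of the 747 regions with H3K4me3 at both starts, 297 (39.8%) had H3K4me2 at both, 301 (40.3%) at 1 and 149 (19.9%) at neither. Of the 488 with H3K4me3 at 1 start, 53 (10.9%) had H3K4me2 at both, 242 (49.6%) at 1 and 193 (39.5%) at neither. In these one-sided regions H3K4me2 lay at 268 of the 488 H3K4me3 starts (54.9%, 50.4 to 59.4) and at 80 of the 488 starts opposite (16.4%, 13.2 to 20.0). The share at starts of regions with no H3K4me3 start was 14.3% (11.0 to 18.1), and its interval overlaps that of the starts opposite. Of the 242 regions in which each mark lay at a single start, both marks lay at the same start in 215 (88.8%, 84.2 to 92.5).

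In the other 27 regions the marks lay at opposite starts. At RPL19A/AAC3 (chromosome II, 415262 to 415982, 721 bp) H3K4me3 covered 60% of the window of the ribosomal protein gene RPL19A (4.20-fold, 534 tags) and none of the other window. H3K4me2 covered the whole window of AAC3 (3-fold, 611 tags), an ADP/ATP carrier of the mitochondrial membrane known for expression without oxygen, and 28.3% of the interval. RPL37B/PLM2 (chromosome IV, 1450854 to 1451352) showed the same arrangement, with H3K4me3 at RPL37B (3.25-fold) and H3K4me2 at PLM2, a transcription factor gene (2.89-fold). At FRE8/RPS0B (chromosome XII, 241408 to 242231) H3K4me3 lay at RPS0B (3.50-fold) and H3K4me2 over 70.8% of the window of FRE8, which encodes a protein of the iron reductase family (2.88-fold). At RPS0B the H3K4me2 peak of the gene itself reached 7.2% of the window. The pairs described here are the first 5 by the lower of the H3K4me3 and the H3K4me2 fold, a rule that only selects them, since the folds of the 2 lists are not on a shared scale. The other 2 of these were DPH5/TAG1 and JJJ2/FMP33. DPH5 had H3K4me3 (3.77-fold) and TAG1 had H3K4me2 (2.89-fold), but H3K4me2 also covered 46.6% of the DPH5 window (2.18-fold, 227 tags). JJJ2 had H3K4me3 (2.78-fold) and FMP33 had H3K4me2 (2.94-fold). Under the limit, H3K4me2 also lay at the H3K4me3 starts of SSH1 (46.2%), PPX1 (38.6%), ARB1 (34.4%) and SHE10 (22%). Apart from these, DPH5 and RPS0B, no H3K4me3 start of the 27 had a base of H3K4me2. A ribosomal protein gene held the H3K4me3 side in 4 of the 27 (14.8%, 4.19 to 33.7). The same held for 18 of the 488 regions with H3K4me3 at 1 start, and such genes were 2.83% of all divergent starts with H3K4me3. No divergent ribosomal protein start carried H3K4me2. Where each mark lay at a single start and H3K4me3 at such a gene, the region therefore falls among the 27 by construction. Named after their values were seen, further H3K4me2 sides were the stress transcription factor gene MSN4, the drug transporter gene PDR10 and the proton pump gene PMA2, opposite YKL063C, SNC2 and EGD1.

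H3K4me2 at both starts with H3K4me3 at neither was found in 7 regions, named after their values were seen. BIO4/BIO3 (chromosome XIV, 734070 to 734290, 221 bp), a pair of biotin synthesis genes, had H3K4me2 over 89.6% of the BIO4 window (2.61-fold, 294 tags) and the whole BIO3 window (2.47-fold, 555 tags), with 41.2% of the interval covered. IMA1/MAL13, an isomaltase and a maltose activator gene, had peaks of 2.76-fold and 2.92-fold. CAT8/GPI12 had 2.36-fold at CAT8, the activator gene of growth on non-fermented carbon sources, and 3.02-fold at GPI12. FIT3/FRE5, genes of iron uptake, had 2.64-fold and 2.03-fold, and GUD1/AIM6, GSP2/YOR186W and GRE1/FMP40 completed the group. All 7 had no base of H3K4me3 in the interval and in both windows.

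The 5 strongest one-sided H3K4me3 starts whose opposite window had no covered base were those of MIX17, ATP14, SRP40, FRA1 and RPL19A. MIX17, a gene of the mitochondrial intermembrane space, had a 4.70-fold peak with 465 tags opposite YMR001C-A, and H3K4me2 lay at MIX17 too. ATP14, an ATP synthase subunit gene, had a 4.41-fold peak with 383 tags opposite YLR296W, without H3K4me2 at either start. SRP40, a nucleolar protein gene, had a 4.31-fold peak with 949 tags opposite the peptide transporter gene PTR2, 1844 bp away. PTR2 itself carried H3K4me2 (2.24-fold), as SRP40 did (3.45-fold). FRA1 had a 4.28-fold peak with 524 tags opposite RRT7, with H3K4me2 at FRA1 as well. RPL19A is described above.

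Of the 5 strongest one-sided H3K4me2 starts whose opposite window had no covered base of H3K4me2, 4 lay in regions with H3K4me3 at both starts. Among all 585 one-sided H3K4me2 regions, including those with partial cover of the opposite window, this held for 301 (51.5%). CAR2 (ornithine transaminase) had a 4.09-fold H3K4me2 peak opposite DIF1, and both genes carried H3K4me3, at 3.92-fold over DIF1 and 3.35-fold over CAR2. TPO2, a polyamine transporter gene, had a 3.86-fold H3K4me2 peak opposite CBF2, a kinetochore gene, with H3K4me3 at both starts (2.42-fold at TPO2, 2.57-fold at CBF2). The RNA-binding protein gene NPL3 (3.42-fold) lay opposite the protease gene CYM1, and INN1 (3.42-fold), of cytokinesis, lay opposite the prefoldin gene GIM3, with H3K4me3 at both starts of each. At MIR1/BNA2 both marks lay at MIR1, the mitochondrial phosphate carrier gene (3.74-fold H3K4me2, 3.96-fold H3K4me3), and none at BNA2, a gene of NAD synthesis.

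Divergent starts of cytosolic ribosomal protein genes carried H3K4me3 without H3K4me2. Of 137 such genes 73 faced a divergent interval, and 56 of these carried H3K4me3 (76.7%, 65.4 to 85.8), beside 69.3% of all divergent starts. H3K4me2 marked 0 of 73 (exact interval up to 4.93%), beside 45.4% of all divergent starts. Of the 63 partners outside the list, 27 carried H3K4me2 (42.9%, 30.5 to 56.0). In each of these 27 regions the partner was therefore the only start with H3K4me2. The H3K4me3 peaks of ribosomal protein genes also sat deeper in the gene: 30 of 56 began inside the gene (53.6%, 39.7 to 67.0), against 106 of 1926 at other starts (5.50%, 4.53 to 6.62). Their median reach into the interval was -22.5 bp, against 136 bp. With 500 bp around each summit the count of H3K4me3 starts was 25. RPL8B/FPS1 (FPS1 is a glycerol channel gene) had folds of 4 and 3.79, and of its 2 starts FPS1 alone carried H3K4me2. H3K4me2 also covered 55.0% of this 1308 bp interval, although the peak at FPS1 began inside the gene. Most ribosomal protein genes exist as 2 nearly equal copies, and how tags that fit either copy were counted is not stated in the labels.

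The 5 pairs in which both genes encode ribosomal proteins show the pattern directly. At RPL13B/RPS16A (chromosome XIII, 551208 to 551927, 720 bp) the H3K4me3 peaks had folds of 3.89 and 3.88, covered 57.2% and 77.8% of the windows and no base of the interval. RPS16B/RPL13A (chromosome IV, 307790 to 308423, 634 bp), the paralogous pair, had folds of 3.17 and 3.39 over 87.8% and 61.6% of the windows, again with no base of the interval covered. Both pairs thus had 2 separate peaks that began downstream of the start codons. RPL24A/RPL30 (folds 3.77 and 3.11) and RPS15/RPP2A (folds 3.51 and 2.99) had H3K4me3 reaching over 31.3% and 23.1% of the interval, and RPS22A/RPL39 had it at RPL39 alone (3.47-fold). None of the 10 starts had a base of H3K4me2.

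In 5 other lists most divergent starts carried H3K4me3, beside 69.3% of all divergent starts. The H3K4me2 shares lay on either side of the 45.4% of all. Among these lists the exact H3K4me2 interval excluded 45.4% for mitochondrial ribosomal protein genes alone (14.2 to 42.9%). All 56 divergent starts of ribosome biogenesis genes carried H3K4me3 (exact interval down to 93.6%), led by UTP25 (4.16-fold, facing ICE2), RRP14 (4.03-fold, facing TEF4) and DRS1 (4.01-fold, facing COX17). Their partners outside the list carried it in 42 of 52 cases (80.8%, 67.5 to 90.4), and 26 of the 56 members carried H3K4me2 (46.4%). Proteasome genes had H3K4me3 at 20 of 21 starts (95.2%), with PRE6 (4.02-fold), PUP1 (4-fold) and PUP2 (3.90-fold) strongest, and H3K4me2 at 6 (28.6%). Mitochondrial ribosomal protein genes had H3K4me3 at 35 of 41 starts (85.4%) and H3K4me2 at 11 (26.8%), with MRP20 (4.13-fold, facing RPB7), RSM7 (3.99-fold, facing YJR115W) and MRPL8 (3.82-fold, sharing its peak with COA3). Amino acid synthesis genes had H3K4me3 at 30 of 33 starts (90.9%) and H3K4me2 at 21 (63.6%), with ASN2 (3.66-fold, facing PPT1), THR1 (3.64-fold, sharing its peak with MAS2) and CYS4 (3.54-fold, facing GTO1) strongest. Heat shock genes had H3K4me3 at 7 of 8 starts (87.5%, 47.3 to 99.7) and H3K4me2 at 4 (15.7 to 84.3%), and both intervals include the share over all divergent starts. Their highest H3K4me3 folds were at SIS1 (4.39-fold), HSP60 (3.72-fold) and SBA1 (3.63-fold).

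**Figure D5:**
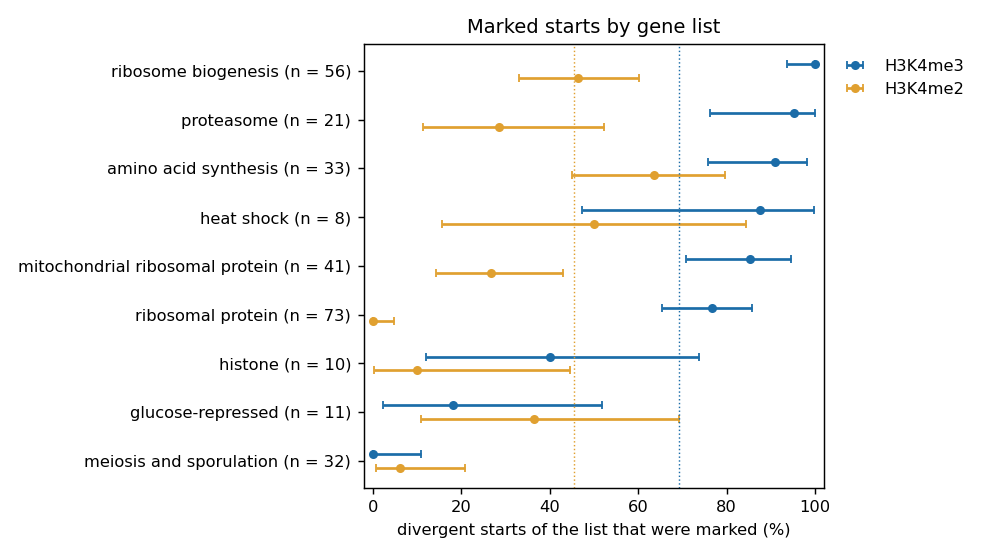
Share of the divergent starts of each gene list that were marked (horizontal axis, %), with exact 95% intervals the number of divergent starts, and dotted lines at the share over all divergent starts (69.3% for H3K4me3, 45.4% for H3K4me2). Ribosomal protein genes lie at 76.7% and 0%, meiosis genes at 0% and 6.25%.

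Genes of meiosis and sporulation, which haploid cells growing on glucose do not use, carried no H3K4me3 at their divergent starts. None of 32 starts was marked or had a covered base (exact interval up to 10.9%). Of all divergent starts 69.3% were marked. H3K4me2 lay at 2 of the 32 (6.25%), beside 45.4% of all divergent starts. The 26 partners of meiosis genes outside the list carried H3K4me3 in 12 cases (46.2%, 26.6 to 66.6) and H3K4me2 in 10 (38.5%). For H3K4me3 these regions were therefore one-sided or unmarked. H3K4me2 lay at both starts in 2 of them, named after their values were seen: SPO16/RTT107 (2.49-fold and 2.72-fold) and ACA1/SPO73 (2.82-fold and 2.49-fold). The 3 pairs in which both genes belong to the list, DIT2/DIT1 of spore wall synthesis, SPO22/HOP1 of meiotic chromosome pairing and SPS18/SPS19 of sporulation, had no base of either mark in the interval and both windows. Glucose-repressed genes had H3K4me3 at 2 of 11 starts (18.2%, 2.28 to 51.8), MDH2 (3.56-fold) and SUC2 (2.81-fold), beside 69.3% of all divergent starts. They had H3K4me2 at 4 (36.4%, 10.9 to 69.2), an interval that includes the 45.4% of all divergent starts. In this list the pair MAL11/MAL12 had no H3K4me3 and H3K4me2 at MAL11 alone (2.65-fold), with 54.5% of the interval covered. GAL10/GAL1, the textbook divergent pair that glucose shuts off, had no H3K4me3 and no covered base in its 668 bp interval (chromosome II, 278353 to 279020). Its H3K4me2 covered 1.4% of the GAL10 window, from a peak further inside the gene.

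The core histone genes, which cells transcribe in S phase from 4 divergent promoters, carried H3K4me3 at 2 of 8 starts, beside 69.3% of all divergent starts. HTA2/HTB2 (chromosome II, 235793 to 236491) had H3K4me3 at HTB2 alone (2.99-fold, 241 tags), and HHT2/HHF2 (chromosome XIV, 576051 to 576726) had it at HHT2 alone (2.84-fold, 228 tags). HTB1/HTA1 and HHF1/HHT1 had no base of either mark in the interval and both windows. All 4 pairs lacked H3K4me2. The genes are under 500 bp long and have near-identical copies. The linker histone gene HHO1 (4.16-fold, facing NAN1) and the variant histone gene HTZ1 (3.88-fold, facing PLB3) carried H3K4me3, and HHO1 carried H3K4me2 as well. MRM1/HIS3 (chromosome XV, 721709 to 721945, 237 bp) had H3K4me3 at both starts, 3.46-fold with 540 tags at MRM1 and 3.14-fold with 200 tags over 80.4% of the HIS3 window, although BY4741 lacks a piece of HIS3. MAL31/MAL32 was listed as well, but these genes are not neighbours in the table.

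Regions without any base of either mark in the interval and both start windows numbered 132 (9.22%, 7.78 to 10.8). A gene with a systematic name alone was present in 52 of them (39.4%, 31.0 to 48.3), against 284 of all 1431 regions (19.8%), and a meiosis gene in 14 (10.6%), against 29 of all (2.03%). Of the 132, 27 (20.5%) lay within 25 kb of the first base of the chromosome or of its last annotated gene, against 52 of all 1431 (3.63%). The widest were YPS6/PAU15 (1817 bp), next to a chromosome end, and 4 pairs beside the copies ASP3-1, ASP3-2, ASP3-3 and ASP3-4 of the asparaginase gene on chromosome XII (1706 or 1707 bp). These 4 copies are near-identical, and tags that match several places may not be placed, so an absent peak there does not show an absent mark. Within 25 kb of a chromosome end 63.5% of 52 regions (49.0 to 76.4) had H3K4me3 at neither start, against 11.8% of the 1379 regions further away (10.2 to 13.6).

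Intervals that hold a tRNA gene, which RNA polymerase III transcribes, were less often marked on both sides. H3K4me3 lay at both starts in 15 of 67 regions with a tRNA gene (22.4%, 13.1 to 34.2), beside 52.2% of all regions. These intervals were wider, with a median of 1106 bp against 485 bp without a tRNA gene. Among intervals of 500 to 2000 bp the shares were 22.7% of 66 regions with a tRNA gene (13.3 to 34.7) and 50.2% of 656 without (46.3 to 54.0). The H3K4me2 shares in the same classes were 13.6% (6.43 to 24.3) and 31.9% (28.3 to 35.6).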

How the data were processed

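The values come from 1 H3K4me3 and 1 H3K4me2 library. Per the submitters' processing notes, the tools were CASAVA 1.8.2 and the peak caller MACS 1.4.2, with build sacCer3. No source used here names the aligner, the settings or the control. Each list that the authors deposited holds, per peak, a count of tags that is not normalised and a fold enrichment, a ratio to a background that is not named. It also holds a column headed as p-value. Its deposited values all exceed 50 and were taken as the MACS score, -10 times log10 of p, though no header states that scale. Folds were compared within a list alone.

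Genes, as spans between start and stop codon, came from the RefSeq table of assembly R64, and strand from the systematic name. Overlaps were computed in Python 3.11.15 (pandas 2.3.3, numpy 2.4.6, scipy 1.17.1) and checked on simulated peaks. The peak credited to a start has the most bases in its window. Of the 1431 intervals, 2 lie partly inside an earlier gene and were kept.

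The members, lists and measures were chosen with earlier results of these data known. Regions were named by rule: the 5 highest or widest of each kind of marking, 8 textbook pairs of which 7 qualified, and up to 3 pairs of highest H3K4me3 fold per gene list. Alternatives used stricter scores (100) or folds, equally long lists, 500 bp around summits, limits of 25% and 75%, and windows of 300 and 1000 bp. The input library and interval sequences were not analysed here.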

Additional observations from a re-analysis of the deposited data

How the results depend on the processing

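Over 24 results and 8 alternatives, 127 of 164 values stayed within 1.5 times the reported one, no ratio changed its side of 1, and 37 values moved further; which regions make up each count was not compared. The ratios and the ribosomal protein counts were added after the data had been seen. With peaks at or above the median fold, H3K4me3 marked both starts in 298 regions and none in 634, left 677 intervals without a base and 260 covered over 50%. H3K4me2 marked both starts in 127 and none in 833, with 39 intervals over 50%, and 50 regions had the marks at opposite starts. With 500 bp around summits, the H3K4me3 counts were 450, 317, 737 and 86 in the same order, with 16 intervals covered whole and 25 ribosomal protein starts marked. The H3K4me2 counts were 50 two-sided, 368 one-sided and 1013 unmarked regions, with 9 intervals over 50% and 0 covered whole. The marks shared a single start in 134 regions and lay opposite in 42. This setting shortens every peak, which lowers coverage by construction. With a score of at least 100, H3K4me3 left 322 regions unmarked and 370 intervals without a base, and H3K4me2 marked both starts in 228. With equal numbers of peaks the first 2 were 341 and 387. A limit of 25% gave 909 H3K4me3 and 195 H3K4me2 intervals over it, and 75% gave 296 and 20, with 225 two-sided H3K4me2 regions. The first 1000 bp gave 1 ribosomal protein start with H3K4me2. The divergent over convergent ratio of interval shares was 2.94 for H3K4me3 (1.84 around summits) and 0.398 for H3K4me2 (0.652 at 25%, 0.196 at 75%, 0.172 around summits). The H3K4me2 divergent over tandem ratio, 0.789, was 0.522 at 75%. The cause of these moves was not tested beyond what the settings do by construction. No paired analysis was possible because each mark has 1 library. The lists give no depth outside peaks, so weak enrichment below the caller's limit cannot be told from none.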

Other observations

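Among the regions in which a mark lay at neither start, a few intervals carried a peak of that mark. For H3K4me3 these were MRN1/RTC6 on chromosome XVI, with a peak at 197987 to 198932 (2.60-fold, 293 tags) that covered 72.4% of the 1306 bp interval, and YBR292C/VBA2 on chromosome II, with a peak at 785362 to 785915 (2.52-fold, 180 tags). For H3K4me2 they were PBI1/ATP15 on chromosome XVI, with a peak at 28527 to 29715 (2.80-fold, 540 tags) over 62.1% of the interval, and DAN4/YJR151W-A on chromosome X, with a peak at 716714 to 717589 (2.65-fold, 331 tags). The annotation shows no non-coding gene in any of the 4 intervals. Their scores were 70.23, 56.62, 225.46 and 71.72, so PBI1/ATP15 alone lay above the alternative limit of 100. Separate peaks in intervals beside a marked start, as for H3K4me2 at RPL8B/FPS1, are not listed here.

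H3K4me2 values differed between the left and the right side. It marked 681 of 1431 right starts (47.6%, 45.0 to 50.2) and 618 left starts (43.2%, 40.6 to 45.8), and it covered the start codon's first base at 24.7% of right (22.5 to 27.0) and 17.3% of left starts (15.3 to 19.3). The median reach of its peaks past the start codon was 2 bp on the right and -52 bp on the left. For H3K4me3 the marked shares were 69.9% and 68.6% and the reaches 128 and 122 bp. Over all genes H3K4me2 marked 45.1% of W-strand and 41.9% of C-strand starts. The right over left ratio of H3K4me2 starts, 1.10, ran between 1.03 and 1.30 under the alternatives. Left and right are set by the orientation of the chromosome maps, and a shift of the coordinates in the H3K4me2 list and a difference between the sides cannot be told apart here, which limits what these shares and reaches mean.

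The share of regions with both starts marked was also counted per chromosome. For H3K4me3 the lowest was 44.3% on chromosome X (39 of 88) and the highest 64.0% on chromosome XI (48 of 75), beside 52.2% of all regions. For H3K4me2 the lowest was 18.2% on chromosome XII (24 of 132) and the highest 40.5% on chromosome III (15 of 37), beside 24.9% of all. Whether chromosomes differ beyond counting error was not tested.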
